A study of Homo sapiens with 9 samples.

Results

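The 10 genes described here are the uveal melanoma (UM) driver and Gq pathway genes GNAQ, GNA11, PLCB4, TRIO, PRKCD, PRKCE, RASGRP3, BAP1, SF3B1 and EIF1AX. They were chosen by symbol, by a rule that uses no measured value but with earlier results of these data known, and all 10 of the 10 symbols were found among the 14839 genes with normalized expression. The values come from RNA sequencing of polyA RNA in MP41 cells, a human UM cell line that carries a GNA11 mutation according to the study and for which no second driver event is known. Cells were transfected at 66 nM with a synthetic miR-16 or with the control mimic miR-CTR and collected 6, 12, 24 and 48 h later, and 1 library marks 0 h. The 0 h library is labelled with the control mimic and described by the study as the starting point of the kinetic. Each of the 9 conditions is 1 library of the same cell line, so no difference at a single time has a replicate check. The only test is 1 over the 4 times, with each time as a pair of libraries.

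In most UM tumors, the α subunit of a Gq-class G protein, GNAQ or GNA11, is locked in its active form by mutation. Active Gαq/11 switches on 2 arms. PLCB4, a phospholipase Cβ, produces diacylglycerol and calcium signals, diacylglycerol recruits the protein kinases C PRKCD and PRKCE and the RAS exchange factor RASGRP3, and RASGRP3 feeds the MAPK cascade. TRIO, a guanine nucleotide exchange factor, carries the other arm. Later events strike BAP1 (a nuclear deubiquitinase), SF3B1 (the branch-point subunit of the U2 snRNP) or EIF1AX (a translation initiation factor), and BAP1 loss marks tumors with a high risk of metastasis.

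miR-16 pairs with its targets mainly through the seed, bases 2 to 8, shown in capitals in the mature sequence. RefSeq places it on GRCh38.p14 at chr13:50049027-50049048 (reverse strand, MIR16-1) and chr3:160404754-160404775 (forward strand, MIR16-2).
hsa-miR-16-5p: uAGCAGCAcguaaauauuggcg

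The longest annotated 3′UTR of each gene (GENCODE version 29, GRCh38) was searched on the transcribed strand for TGCTGCTA (8mer), TGCTGCT (7mer-m8) and GCTGCTA (7mer-A1), a shorter match inside a longer one being counted once as the longer. The matches found in 5 of the 10 genes are shown with the match in capitals, because they place the genes that carry a seed match beside those that do not.
GNAQ 7mer-A1, chr9:77720447-77720453, reverse strand: ttaccctaatgGCTGCTAcccagaacctt
GNAQ 7mer-m8, chr9:77717316-77717322, reverse strand: gtaatgtatatTGCTGCTcttcttcaaat
PRKCD 7mer-m8, chr3:53192354-53192360, forward strand: gtggtgacttcTGCTGCTggccccgcccc
BAP1 7mer-m8, chr3:52401786-52401792, reverse strand: gctctgggcccTGCTGCTctagccccagc
EIF1AX 7mer-m8, chrX:20128024-20128030, reverse strand: aaaccatgcatTGCTGCTtttcctaccac
SF3B1 7mer-A1, chr2:197390659-197390665, reverse strand: gccgagatagcGCTGCTAcactccagcct

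The share with a match of 7 bases or more was 50% (5 of 10), beside 29.2% (3383 of 11584) of the protein-coding genes with a 3′UTR. The 3′UTRs of the 10 genes were also longer, with a median of 2386 bases against 1420. None of the 10 held an 8mer, against 4.96% of all genes. GNA11 held 2 matches of 6 bases (GCTGCT) and no longer one, and the letters searched were absent from the 3′UTRs of PLCB4, TRIO, PRKCE and RASGRP3. A match of letters is a description, and binding at these positions was not measured in these libraries.

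Depth ranged from 20280000 to 27360000 reads per library, as recovered from the steps between low values, and the library medians from 9.13 to 9.17. The 7 melanocyte markers MITF, PMEL, MLANA, TYR, DCT, SOX10 and PAX3 all had values, with a summed log2 level of 17.41 to 18.14 in the 4 miR-CTR libraries, 17.46 to 18.30 in the 4 miR-16 libraries and 17.46 at 0 h. Of 11 markers of epithelial, blood, endothelial and stromal cells, 3 had values (COL1A1, CD68 and PDGFRB), with a summed level of 8.37 to 9.04, 8.67 to 8.87 and 8.59 in the same order. Of these 3, PDGFRB, a pericyte and fibroblast receptor at 3.52 to 5.60, was higher with miR-16 by 1.59 at 24 h and 2.0 at 48 h (late logFC 1.80, counting SE 0.346) and stood at -1.19 from 0 h with miR-CTR, while COL1A1 (0.04) and CD68 (-0.08) were within the threshold. Its part in the results was not tested. The other 8 were not analysed here. CCND3 and WEE1, cell-cycle genes that the study uses as known miR-16 targets, gave the scale of the response, with a late logFC of -1.02 (counting SE 0.065) and -1.06 (0.056). Here logFC is the log2 value with miR-16 minus that with miR-CTR at the same time, the late logFC is its mean over 24 and 48 h, the early logFC its mean over 6 and 12 h, and a gene is called when a difference exceeds 0.5 in size, the threshold of the study. The counting SE comes from the reads and covers counting error only, not variation between cultures.

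Levels of different genes were compared as RPKM, reads scaled to the length of the exons (the union of annotated exons) and to the depth of the library. SF3B1 was the highest of the 10, with a median of 53.9 over the 9 libraries and a range of 42.8 to 57.3. It was followed by EIF1AX at 28.4 (21.8 to 37.6), BAP1 at 23.2 (20.5 to 25.8) and RASGRP3 at 18.5 (16.2 to 26.4), so the secondary drivers and the RAS exchange factor stood above both Gα subunits. Of the 2 Gα subunits, GNA11, the one mutated in MP41, reached a median of 14.1 (11.3 to 15.3) and GNAQ 7.66 (6.40 to 8.84), and their ranges did not overlap. PRKCD at 7.28 (6.69 to 9.91), PLCB4 at 5.90 (4.50 to 10.2), TRIO at 5.09 (4.17 to 5.75) and PRKCE at 3.45 (2.63 to 4.84) closed the order. Neighbours in this order overlapped in range except SF3B1 over EIF1AX, RASGRP3 over GNA11 and GNA11 over GNAQ. The exon union of TRIO was 17500 bases and that of PRKCD 3396, and isoforms that use fewer exons would have a higher level than this scale gives.

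**Figure D1:**
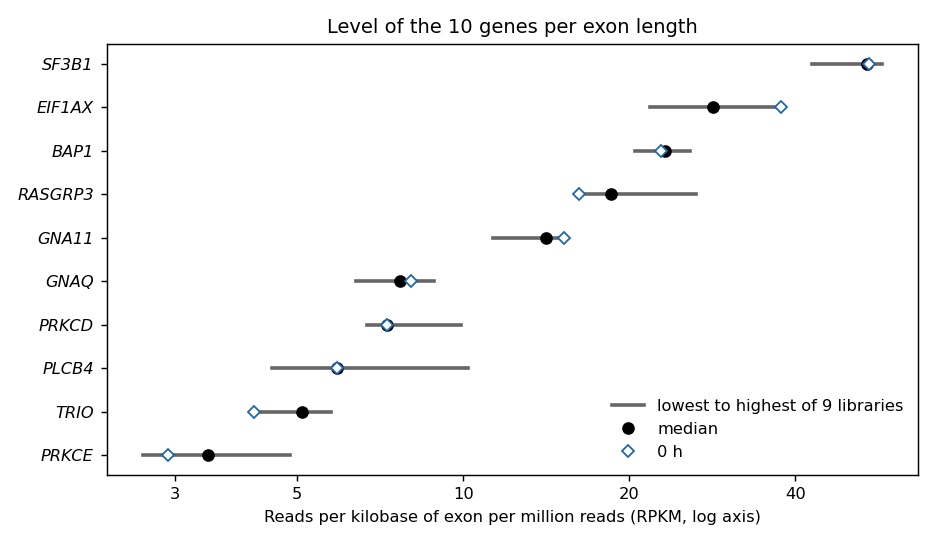
Level of the 10 genes in RPKM (horizontal log axis): filled circles are medians over 9 libraries, grey lines run from the lowest to the highest library, and open diamonds mark 0 h. SF3B1 (median 53.9) lies clear of EIF1AX (28.4), and GNA11 (14.1) clear of GNAQ (7.66).

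No member of the set was called in the late comparison of miR-16 with miR-CTR, 0 of 10, where 5.73% of all genes were called lower, 7.76% higher and 13.5% in either direction. The early comparison also gave 0 of 10, with 3.48% of all genes called in either direction. In bulk RNA, a change in each cell and a change in the share of cells cannot be told apart. Below the threshold, 8 of the 10 late values lay under 0 and 2 above. The median late logFC of the 10 was -0.17, beside 0.01 over all genes (5th to 95th percentile, -0.53 to 0.62), and their median early logFC was 0.00, as over all genes. The late values were led by PRKCD (-0.48), EIF1AX (-0.28) and GNAQ (-0.27), which are 3 of the 5 genes with a seed match. The other 2 genes with a match, BAP1 (0.04) and SF3B1 (0.02), had the only late values above 0.

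The test over the 4 times took the mean difference between the mimics in the 8 transfected libraries, with time as a block. It used limma on the log2 values, with 3 residual degrees of freedom per gene. Its SEs and p-values rest on variances moderated over all genes, with a trend over expression level. The test treats the 4 times as repeats of 1 difference, which they are not by design. None of the 10 genes passed an adjusted p of 0.05 (Benjamini-Hochberg over all genes), where 10.7% of all genes did, and 4 of the 10 had an unadjusted p under 0.05, as had 30.4% of all genes. The 4 were PRKCE (mean difference -0.225, SE 0.064, limma adjusted p = 0.0509), PRKCD (-0.305, SE 0.088, limma adjusted p = 0.0527), GNAQ (-0.19, SE 0.065, limma adjusted p = 0.0861) and EIF1AX (-0.175, SE 0.067, limma adjusted p = 0.116). PRKCE, PRKCD and GNAQ were lower with miR-16 at 4 of 4 times and EIF1AX at 3 of 4. The limma adjusted p of the other 6 ranged from 0.287 for BAP1 to 0.894 for GNA11.

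**Figure D2:**
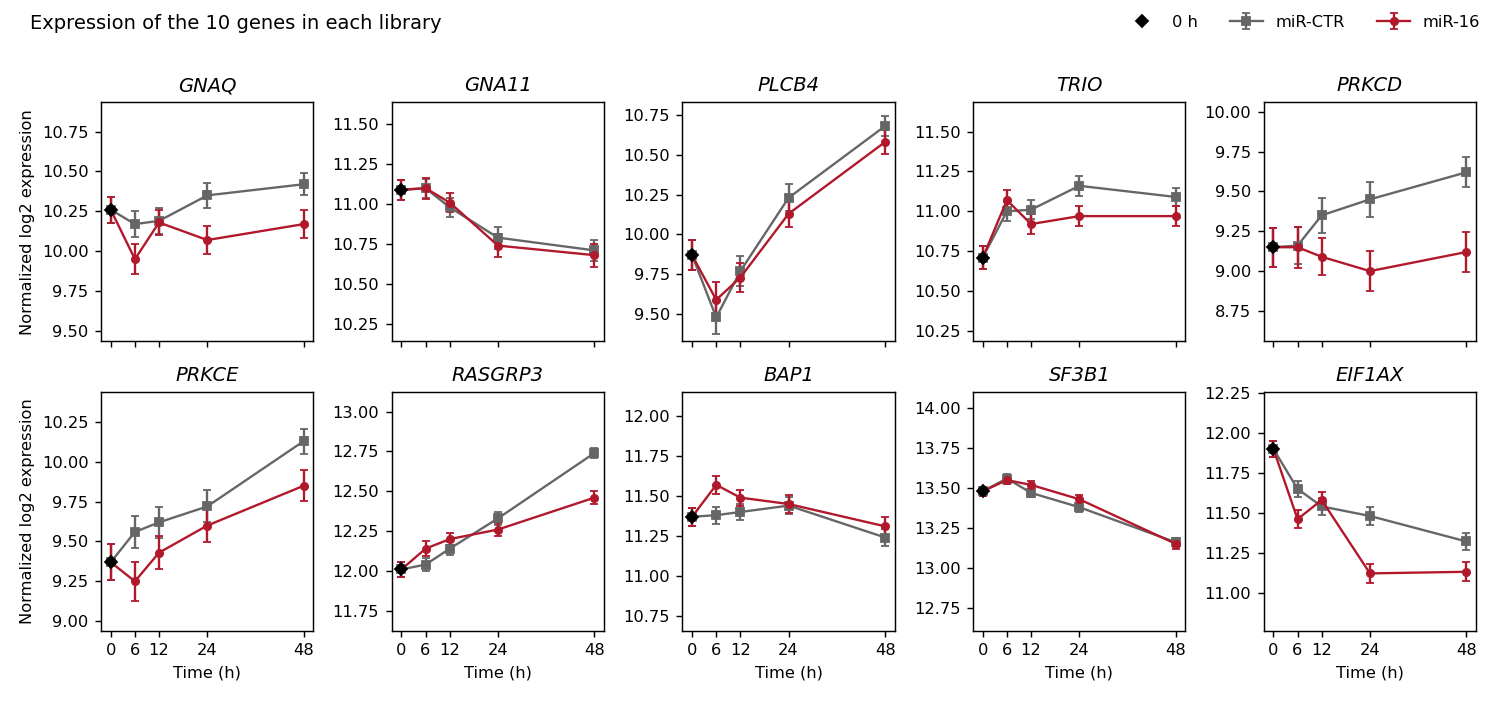
Normalized log2 expression (vertical axes, all spanning 1.5) against time in hours for the 10 genes: red circles are miR-16, grey squares miR-CTR, black diamonds the shared 0 h library, each point 1 library, with bars for the 95% counting interval. PRKCD with miR-16 stays near its 0 h value of 9.15 while miR-CTR reaches 9.62, EIF1AX lies below 0 h with both mimics, and GNA11 and SF3B1 follow the same course with both.

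The 2 Gα subunits took different courses. GNAQ (ENSG00000156052.10, chr9:77716087-78031458, reverse strand), the subunit for which the study names no mutation in this line, had a log2 value of 10.26 at 0 h, 9.95, 10.18, 10.07 and 10.17 with miR-16 at 6, 12, 24 and 48 h, and 10.17, 10.19, 10.35 and 10.42 with miR-CTR. All 4 miR-16 values were below those of miR-CTR at the same time, by 0.01 at 12 h and by more at the other times. The logFC was -0.22, -0.01, -0.28 and -0.25, and the late logFC was -0.27 (counting SE 0.042, 95% counting interval -0.35 to -0.18). The late miR-CTR libraries lay 0.13 above 0 h and the late miR-16 libraries lay at -0.14 from it, so the late difference came in about equal shares from the 2 sides.

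GNA11 (ENSG00000088256.8, chr19:3094410-3124004, forward strand) had 11.09 at 0 h, 11.10, 11.01, 10.74 and 10.68 with miR-16, and 11.10, 10.98, 10.79 and 10.71 with miR-CTR. In both series the 24 and 48 h values were below those of 6 and 12 h, and the mimics stayed within 0.05 of each other at every time. Its late logFC was -0.04 (counting SE 0.035, 95% counting interval -0.11 to 0.03), an interval that includes 0, while the late libraries lay at -0.34 (miR-CTR) and -0.38 (miR-16) from 0 h, neither past 0.5. Of the exon bases of GNA11, 7.24% and 7.56% overlap a pair of annotated antisense genes (AC005262.2 and KF456478.1), and the strand setting of the counting is not given in the sources used here.

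Over the 9 libraries the log2 values of GNAQ and GNA11 had a Pearson r of -0.39, given as a description of libraries that share 1 culture series. The 3 genes of mean log2 8 or more whose values followed GNAQ most closely were FBXO3 (r = 0.961), CGGBP1 (0.957) and ESRRA (0.95), and 40 of 9747 genes passed r = 0.9. For GNA11 they were PPP1R8 (0.987), GRWD1 (0.987) and NOL11 (0.986), and 650 genes passed r = 0.9. The course of GNA11, with lower values at later times in both series, was thus shared by many more genes than that of GNAQ.

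PLCB4 (ENSG00000101333.16, chr20:9068763-9481242, forward strand) had the widest range of the 10, 1.20 on the log2 scale, and 83.7% of all genes had a smaller one. Its value was 9.87 at 0 h, 9.59, 9.73, 10.13 and 10.58 with miR-16, and 9.48, 9.77, 10.23 and 10.68 with miR-CTR. In both series it was lowest at 6 h and highest at 48 h. The mimics differed by 0.11, -0.04, -0.10 and -0.10, a late logFC of -0.10 (counting SE 0.04). PLCB4 thus differed more between times than between mimics.

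TRIO (ENSG00000038382.19, chr5:14143702-14532128, forward strand) had its lowest value at 0 h, 10.71. It was 11.07, 10.92, 10.97 and 10.97 with miR-16 and 11.00, 11.01, 11.16 and 11.09 with miR-CTR. The 8 transfected libraries were thus all above 0 h, and the mimics crossed between 6 and 12 h. The late logFC was -0.16 (counting SE 0.031, 95% counting interval -0.22 to -0.09).

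PRKCD (ENSG00000163932.13, chr3:53156009-53192717, forward strand), the δ isoform of protein kinase C, came closest to the threshold. Its log2 value was 9.15 at 0 h, 9.15, 9.09, 9.0 and 9.12 with miR-16, and 9.16, 9.35, 9.45 and 9.62 with miR-CTR. The miR-16 series stayed level while each miR-CTR value was above the one before, and from 12 h on every miR-CTR value was above every miR-16 value. The logFC was -0.01, -0.26, -0.45 and -0.50, and the late logFC of -0.48 (counting SE 0.058, 95% counting interval -0.59 to -0.36) equals a fold of 0.719. The interval spans the threshold, and 6.46% of all genes had a lower late logFC. The reads behind these values were 487 to 921 per library, the fewest of the 10 genes.

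PRKCE (ENSG00000171132.13, chr2:45651345-46187990, forward strand), the ε isoform, holds no seed match and was also lower with miR-16 at all 4 times. It had 9.37 at 0 h, 9.25, 9.43, 9.60 and 9.85 with miR-16, and 9.56, 9.62, 9.72 and 10.13 with miR-CTR. In both series the value was lowest at 6 h and highest at 48 h among the transfected libraries. The difference was as large at 6 h (-0.31) as at 48 h (-0.28), with -0.19 and -0.12 between them, and the late logFC was -0.20 (counting SE 0.048). Its early logFC of -0.25 (95% counting interval -0.36 to -0.14) was the lowest of the 10.

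RASGRP3 (ENSG00000152689.17, chr2:33436324-33564750, forward strand), the diacylglycerol-activated exchange factor that loads RAS with GTP, had 12.01 at 0 h, 12.14, 12.20, 12.26 and 12.46 with miR-16, and 12.04, 12.14, 12.33 and 12.74 with miR-CTR. It was highest at 48 h in both series, and miR-16 was above miR-CTR at 6 and 12 h and below it at 24 and 48 h. The logFC was 0.10, 0.06, -0.07 and -0.28, and the early and late means were 0.08 (counting SE 0.021) and -0.18 (0.019). That order of signs occurred in 537 genes, 3.62% of all. Only 0.63% of the exon bases of RASGRP3 overlap an annotated antisense gene, AC020594.1.

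Of the 10 genes, GNAQ, PRKCD and PRKCE were lower with miR-16 at all 4 times, as were 16.7% of all genes, and BAP1 was higher at all 4 times, as were 17.7%. With shares of this size over all genes, 3 of 10 and 1 of 10 are described here and not read as particular to these genes.

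BAP1 (ENSG00000163930.9, chr3:52401013-52410350, reverse strand) had the narrowest range of the 10, 0.33, and 10% of all genes had a smaller one. Its value was 11.37 at 0 h, 11.57, 11.49, 11.45 and 11.31 with miR-16, and 11.38, 11.40, 11.44 and 11.24 with miR-CTR. The widest gap was at 6 h, where miR-16 stood 0.19 above miR-CTR, and the late logFC was 0.04 (95% counting interval -0.02 to 0.10). SF3B1 (ENSG00000115524.15, chr2:197389784-197435091, reverse strand) had 13.48 at 0 h, 13.55, 13.52, 13.43 and 13.15 with miR-16, and 13.56, 13.47, 13.38 and 13.16 with miR-CTR. The mimics were never further apart than 0.05, and the late logFC was 0.02 (95% counting interval -0.01 to 0.05), which places it near 0 at the highest read counts of the set, 8607 to 12805. Both genes carry a 7-base match. BAP1 was lower with miR-16 at 0 of 4 times and SF3B1 at 2 of 4, by 0.01 each.

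EIF1AX (ENSG00000173674.10, chrX:20124518-20141844, reverse strand), which helps the small ribosomal subunit scan for the start codon, had its highest value at 0 h, 11.90. It was 11.46, 11.58, 11.12 and 11.13 with miR-16 and 11.65, 11.54, 11.48 and 11.32 with miR-CTR. Every transfected library was below 0 h, and both late miR-16 values were below all 4 miR-CTR values. The logFC was -0.19, 0.04, -0.36 and -0.19, with a late logFC of -0.28 (counting SE 0.029, 95% counting interval -0.33 to -0.22). Its processed pseudogene EIF1AXP1, with 172 to 493 reads per library against 2119 to 3678 for EIF1AX, had a late logFC of -0.50 (counting SE 0.095) and followed EIF1AX over the 9 libraries (r = 0.94). How reads that match both copies were counted is not given in the sources used here, so the 2 copies cannot be told apart with certainty. GNAQP1, the pseudogene of GNAQ, had 15 to 34 reads per library against 860 to 1604 for GNAQ.

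**Figure D3:**
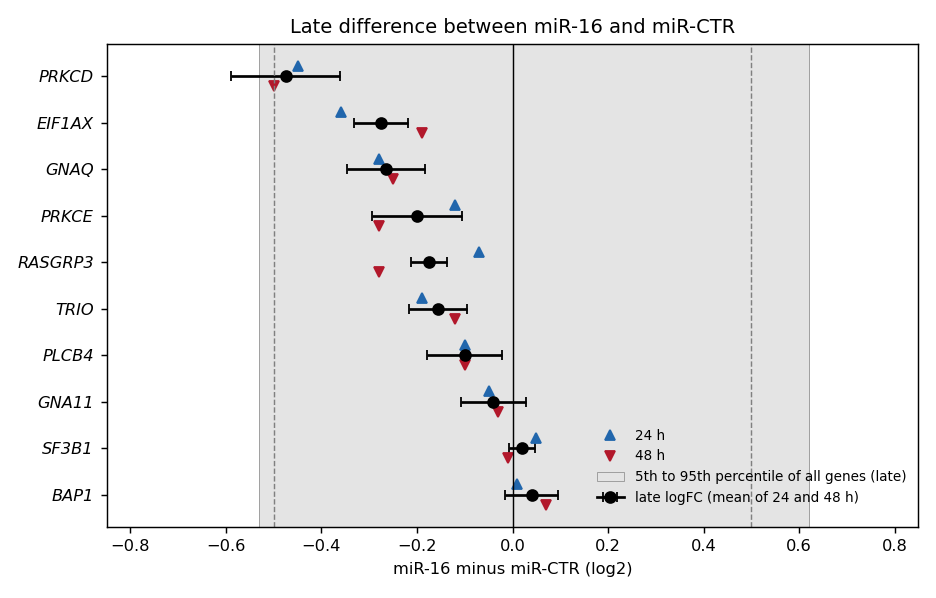
Late logFC, miR-16 minus miR-CTR on the log2 scale (horizontal axis), for the 10 genes: black circles are the mean of 24 and 48 h with the 95% counting interval, triangles the single times, dashed lines the threshold of 0.5, and the grey band the 5th to 95th percentile of all genes. The circles run from -0.48 for PRKCD to 0.04 for BAP1, all inside the thresholds.

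The late logFC of these genes was set beside that of all protein-coding genes by their best match. Genes with a 7mer-m8 had a median of -0.07 (quartiles -0.27 and 0.12, n = 2384), and 8.39% of them were called lower. The 6163 genes with no match of 6 bases or more had a median of 0.03, and 3.49% of them were called lower. Within the 7mer-m8 genes, PRKCD lay below the lower quartile, EIF1AX and GNAQ near it, and BAP1 between the quartiles. SF3B1 lay between the quartiles of the 7mer-A1 genes (-0.30 and 0.13, median -0.08, n = 425). GNA11 lay between those of the genes with a 6mer at best (-0.17 and 0.18, median 0.01, n = 2038). Among genes with no match, PRKCE, RASGRP3 and TRIO lay below the lower quartile of -0.14 and PLCB4 above it. All 4 were below that group's median.

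Each mimic was then compared with the 0 h library, which both comparisons share. With miR-CTR, 3 of the 10 genes were called higher at the late times, where 11.0% of all genes were. They were PLCB4 (0.59, counting SE 0.055), PRKCE (0.56, 0.066) and RASGRP3 (0.53, 0.026), the phospholipase and its downstream kinase and exchange factor. None was called lower (9.79% of all genes), and EIF1AX lay at -0.50, at the threshold and not past it. The calls rest on 48 h. At 24 h alone none of the 10 was past 0.5 (16.2% of all genes), and at 48 h alone 4 were (29.3% of all genes), the same 3 and EIF1AX.

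With miR-16, EIF1AX (-0.78, counting SE 0.033) was called lower, 1 of 10, where 11.7% of all genes were, and none was called higher (14.1% of all genes). PLCB4 reached 0.49, PRKCE 0.36 and RASGRP3 0.35, each lower than with miR-CTR. TRIO stood at 0.42 with miR-CTR and 0.26 with miR-16, and PRKCD at 0.39 and -0.09. SF3B1 had -0.21 and -0.19 and BAP1 -0.03 and 0.01, so these 2 had nearly the same change with both mimics. As both comparisons share the 0 h library, the gap between the mimics is the late logFC again. PLCB4, TRIO, PRKCE and RASGRP3 lay above 0 h with both mimics. PRKCD lay above it with miR-CTR only, as did GNAQ, at 0.13 with miR-CTR and -0.14 with miR-16.

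The melanocyte markers also stood above 0 h at the late times, with a median over the 7 of 0.33 with miR-CTR and 0.52 with miR-16, beside 0.00 and -0.01 over all genes, and their part in the rise of PLCB4, PRKCE and RASGRP3 was not tested. Over the 9 libraries, the log2 values of PLCB4 and RASGRP3 had r = 0.90, those of PRKCE and RASGRP3 0.88, and those of PRKCE and PLCB4 0.85. GNA11 and EIF1AX, the 2 genes with the lowest late values from 0 h with both mimics, had r = 0.82. In a time course such correlations describe a shared trend over time in the same libraries. Time in culture and the presence of a mimic cannot be told apart in the comparison with 0 h.

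**Figure D4:**
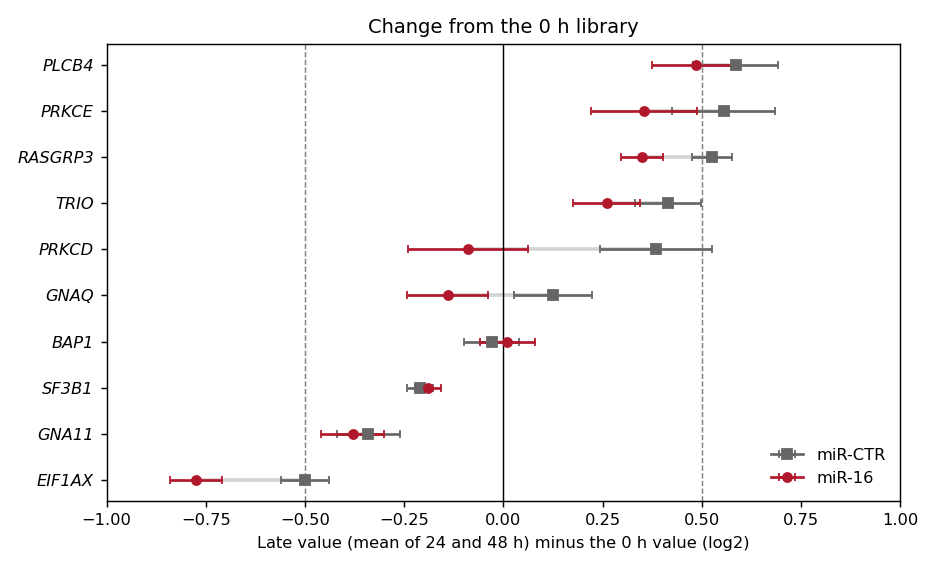
Late log2 value (mean of 24 and 48 h) minus the 0 h value for each gene: grey squares are miR-CTR, red circles miR-16, bars the 95% counting interval, and dashed lines the threshold of 0.5, all differences sharing the same 0 h library. PLCB4, PRKCE and RASGRP3 lie past 0.5 with miR-CTR only (0.59, 0.56 and 0.53) and EIF1AX past -0.5 with miR-16 only (-0.78). PLCB4 with miR-16 (0.49) and EIF1AX with miR-CTR (-0.50) lie at or just inside the lines. In the limma test over the 4 times, none of the 10 genes passed an adjusted p of 0.05 (10.7% of all genes did).

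The genes around these 10 were described by 7 lists that follow the same roles, 135 genes of which 120 had values. Late calls were 4 lower (3.33%) and 8 higher (6.67%), beside 5.73% and 7.76% of all genes, and the median late logFC was 0.03 against 0.01. Past 0.5 at both 24 and 48 h were 6 of these genes, 3 lower and 3 higher, against 2.78% and 4.03% of all genes.

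Among receptors that signal through Gq, 6 of 12 had values, 1 called lower and 2 higher (median 0.44). The 2 higher were EDNRA, an endothelin receptor, at 1.00 (counting SE 0.264) and F2RL1, a protease-activated receptor, at 0.60 (0.153), and P2RY1, a nucleotide receptor, was lower at -0.75 (0.217). All 3 had low levels, with log2 values at 0 h of 5.45, 6.22 and 5.98. From 0 h, EDNRA stood at -0.93 with miR-CTR and 0.08 with miR-16, F2RL1 at 0.01 and 0.61, and P2RY1 at 0.04 and -0.71. F2RL1, called higher, and P2RY1, called lower, each hold 1 seed match, and none was found for EDNRA. EDNRB, the abundant endothelin receptor of melanocytes at 12.37 in the same library, had a late logFC of -0.03. HTR2B and F2R, at 10.28 and 9.71 there, had late values of 0.50 (counting SE 0.055) and 0.39 (0.041). Neither was past the threshold, though at 48 h alone both were (0.56 and 0.53). The list's called genes were thus its 3 lowest at 0 h. HTR2B stood at -1.1 from 0 h with miR-CTR and -0.61 with miR-16, and F2R at 0.39 and 0.77. G protein subunits and regulators gave 0 lower and 2 higher of 19 (median 0.15), the γ subunits GNG10 (0.63, counting SE 0.208) and GNG5 (0.55, 0.032). The SE of GNG10, at 6.18 at 0 h, is larger than its distance from the threshold. At 24 and 48 h GNG10 had 0.79 and 0.47 and GNG5 0.40 and 0.69, so neither was past 0.5 at both times. From 0 h, GNG10 stood at -0.82 with miR-CTR and -0.19 with miR-16, and GNG5 at -0.2 and 0.35. The β subunits GNB1 and GNB2, the partners of Gα at high levels, had late values of -0.14 and -0.13. The β subunits GNB4 and GNB5 went the other way, at 0.32 (counting SE 0.054) and 0.46 (0.073), also within the threshold. GNB5 holds 1 seed match, an 8mer.

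Phospholipase C and second-messenger genes gave 1 lower and 3 higher of 22 (median 0.14). CDS2, which feeds phosphatidylinositol resynthesis, was lower at -0.66 (counting SE 0.023) and holds 3 seed matches. From 0 h, CDS2 stood at 0.55 with miR-CTR and -0.11 with miR-16, so it was past 0.5 with miR-CTR and not with miR-16. PIP4K2A, a phosphoinositide kinase with no seed match found, was higher at 0.57 (0.023) and past 0.5 at both late times. It stood at -0.51 from 0 h with miR-CTR and 0.07 with miR-16, so it fell past 0.5 with miR-CTR and stayed near 0 h with miR-16. The IP3 receptor ITPR2 was called at 0.53 (0.109), with -0.05 at 24 h and 1.11 at 48 h, so its call rests on 48 h. ITPR3, at a log2 value of only 4.3 at 0 h, was called at 0.54 with a counting SE of 0.348, larger than its distance from the threshold. From 0 h, ITPR2 stood at -0.36 with miR-CTR and 0.18 with miR-16, and ITPR3 at -0.37 and 0.17. The other phospholipases Cβ with values, PLCB2 and PLCB3, had 0.30 and -0.03, neither past the threshold.

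Protein kinase C, RasGRP and RAS genes gave 0 lower and 1 higher of 14 (median 0.07). The gene was NRAS, a RAS GTPase, at 0.65 (counting SE 0.033), with HRAS at 0.06. From 0 h, NRAS stood at -1.02 with miR-CTR and -0.37 with miR-16, so it fell past 0.5 with miR-CTR and lay above that with miR-16. In the same libraries RASGRP3, which activates RAS proteins, lay above 0 h, at 0.53 with miR-CTR and 0.35 with miR-16. The protein kinases C PRKCA (0.28), PRKCH (-0.20) and PRKCQ (-0.25) were within the threshold.

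BAP1 partners gave 1 lower and 0 higher of 13 (median -0.06). The gene was FOXK1, a forkhead factor that binds the BAP1 complex, at -0.65 (counting SE 0.043), with 6 seed matches in its 3′UTR, 1 of them an 8mer. From 0 h, FOXK1 was at -0.01 with miR-CTR and -0.65 with miR-16, so it was past 0.5 with miR-16 and not with miR-CTR. That gap is the late logFC again, since the 0 h library is shared. The late difference alone was not tested, as each time has 1 library per mimic.

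None of the 21 genes of the SF3b complex and U2 snRNP was called in the late comparison (median -0.05), the list around SF3B1. The lowest was SNRPA1 at -0.42 and the highest SNRPB2 at 0.30. The initiation factors that act with EIF1AX gave 1 lower and 0 higher of 25 (median 0.05). The gene was EIF5B, which joins the ribosomal subunits and binds the EIF1AX protein, at -0.59 (counting SE 0.023), with -0.69 at 24 h and -0.49 at 48 h. No seed match was found for EIF5B, and it stood at -0.16 from 0 h with miR-CTR and -0.75 with miR-16. F2RL1, GNG5, GNG10, ITPR2, ITPR3, EIF5B and the list genes given within the threshold were named after their values were seen.

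**Figure D5:**
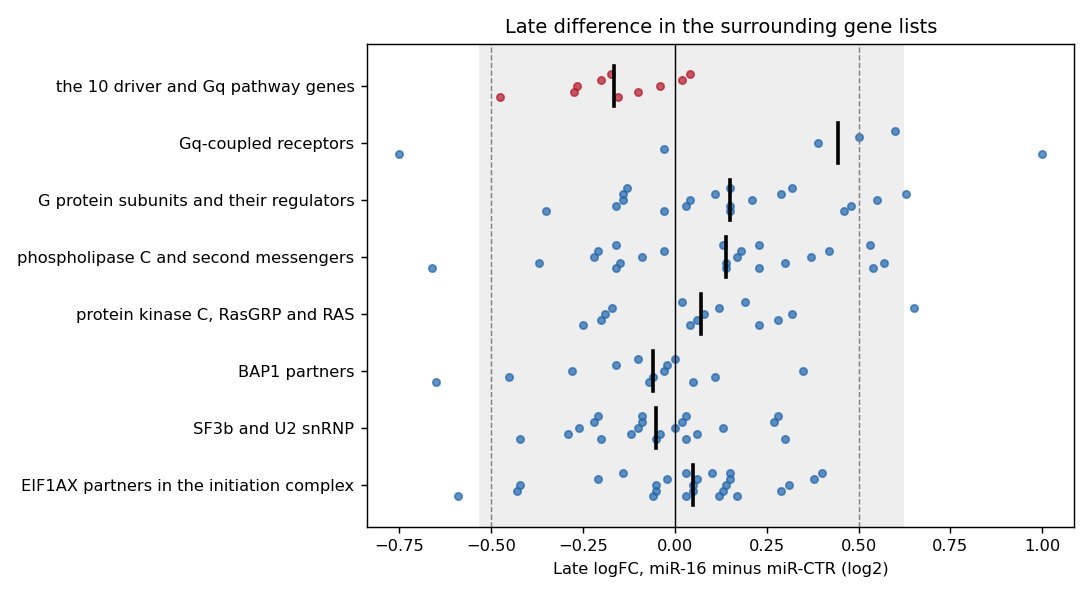
Late logFC (horizontal axis, log2) of the 10 genes (red) and of the genes in the 7 surrounding lists (blue), each point 1 gene with a small vertical offset, black bars the medians, dashed lines the threshold of 0.5 and the grey band the 5th to 95th percentile of all genes. The 10 genes have a median of -0.17, and the lists around them range from -0.06 for BAP1 partners to 0.44 for the 6 Gq-coupled receptors.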

How the data were processed

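PolyA RNA of MP41 cells was sequenced in 9 libraries, 1 per condition. The submitters' processing notes name FastQC, STAR 2.4.0a, featureCounts and Subread 1.5.0-p3 with the build GRCh38 (hg38). The annotation, normalization, expression filter and strand setting are not given in the sources used here. The authors deposited 1 log2 value per gene and library, log2(normalized reads + 1), with 2 decimals and decimal commas. That scale was taken from the values, not from a stated method. Columns carry time-point numbers and were matched to the labelled hours by rank within each mimic, a pairing that no label states. All columns were used.

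Low values were whole multiples of 1 read (all low values, log2 up to 5, within 0.0055), which gave each library's reads and, by Poisson error propagated to the log2 scale, counting SEs. No count model was run, as no condition has a replicate. The mimic effect over the 4 times was tested in limma 3.58.1 (R 4.3.3) with time as a block, a fit added after seeing the data. A gene past 0.5 in size was called. Genes were joined by symbol to GENCODE version 29, and 87.6% of 14839 symbols matched 1 gene. Named genes are the 10 members, CCND3 and WEE1, list genes past 0.5 at both 24 and 48 h, and the 3 genes most correlated with GNAQ and GNA11. The members and lists were chosen with earlier results of these data known. A gene and a list drawn up with them are not reported here and were left out of all list counts. Alternatives covered scaling, pseudocount (10), time window, reference, threshold (1.5-fold), a filter on the lowest 25% and site type. Scripts were tested on simulated data and ran in Python 3.11.15 (numpy 2.4.6, scipy 1.17.1, pandas 2.3.3, matplotlib 3.10.9). The protein sequences of the genes were not analysed here.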

Additional observations from a re-analysis of the deposited data

Results flagged for a closer look

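RASGRP3 with miR-16 lay above miR-CTR at both early times and below it at both late times, and its early logFC exceeded its late logFC by 0.26 on the log2 scale. The difference between early and late times was not tested, since each rests on 1 library per mimic and time. The counting SEs of the 2 means were 0.021 and 0.019, and 537 genes, 3.62% of all, shared this order of signs.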

How the results depend on the processing

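The labels carry no replicate numbers, and the only pairs are the libraries of the same time. A paired fit in limma with time as a block over the 4 times was chosen after seeing the data. In it, 0 of the 10 genes passed an adjusted p of 0.05, where 10.7% of all genes did. An unadjusted p under 0.05 was found for 4 of the 10, and for 30.4% of all genes. Under quantile normalization, centring on the median gene, RPM and a pseudocount of 10, 39 of 40 late logFC values of the 10 genes kept their sign, GNA11 under quantile normalization (0.007) being the exception, and no value shifted by more than 0.047. The count of 0 of 10 late calls held under these settings and at 24 or 48 h alone. At 48 h alone PRKCD lay at -0.50, at the threshold and not past it. A 1.5-fold threshold, a call past 0.5 at both times and leaving out the lowest 25% of genes can only remove calls. These 3 settings could therefore not change a count of 0. With the 0 h library as the reference, 1 gene (EIF1AX) was called lower. The 3 miR-CTR calls from 0 h became 0 at 24 h alone and 1 at a 1.5-fold threshold. That 1 was PLCB4, whose fold of 1.5 lay at the threshold. The 1 miR-16 call became 2 at 48 h alone and 2 under quantile normalization, PLCB4 being added. The 12 late calls among list genes became 8 at a 1.5-fold threshold and 6 past 0.5 at both times, and the 5 genes with a seed match became 0 with the 8mer alone and 6 with the 6mer. Of 70 late values of single genes over the alternatives, 16 moved beyond their counting interval. Under a scaling or pseudocount only RASGRP3 moved, with quantile normalization (-0.134 against -0.175). The others moved at a single time or with the 0 h library as the reference, which is a different comparison. Depth limits PRKCD most, whose late interval spans the threshold, and no alternative stands in for replicate cultures.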
